A study of Mus musculus with 24 samples.

Results

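Among the genes whose level was much lower in Rspo3+ than in Rspo3- CD31+ cells of the mouse gut, 9 were described: C1qtnf9, Spp1, Endou, Enpp6, Slc28a2, Gna14, Fam167b, Efr3b and Lhx6. They are 9 of 54418 genes in the table, and all 9 were among the 19050 with enough counts to be tested. They were picked for a level far lower in CD31+Rspo3+ than in CD31+Rspo3- cells and were thus selected on the measured values of that contrast. The difference is therefore given as a description with no test, and only comparisons among CD31- cells, whose libraries took no part in the choice, were tested for them.

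RNA was measured in 24 libraries of stromal cells without Epcam, an epithelial surface protein, and without CD45, a leukocyte surface protein. The cells came from small intestine or colon of mice on a C57Bl6 background, 8 to 12 weeks old, and were split by CD31, a surface protein of endothelium made from Pecam1, and by expression of an Rspo3 GFP transgene, Rspo3 being a secreted protein that strengthens Wnt signaling. The 8 groups of 3 libraries were CD31+Rspo3-, CD31+Rspo3+, CD31-Rspo3- and CD31-Rspo3+ cells of each tissue. All groups shared the strain and age range, and the labels name no treatment, while the sources used here do not give the construct behind the transgene or any pooling of animals.

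The endothelium of the gut has a blood and a lymphatic branch. Blood endothelial cells line arteries, capillaries and veins and exchange nutrients, hormones and immune cells with the tissue, while lymphatic endothelial cells drain fluid and absorbed fat. Secreted factors, nucleotide-handling enzymes, membrane transporters and G-protein signaling all differ between kinds of vessel. By their known roles, C1qtnf9 (an adiponectin-related secreted protein that acts on vessels), Spp1 (osteopontin, a secreted ligand of integrins and CD44) and Endou (a poly-U specific endoribonuclease) belong outside the cell or to the secretory route. Enpp6 (a membrane-anchored choline phosphodiesterase) and Slc28a2 (a sodium-dependent nucleoside transporter, also called CNT2) sit at the cell surface. Gna14 (an alpha subunit of the Gq class), Efr3b (a plasma membrane anchor of the lipid kinase Pi4ka) and Fam167b (a little-studied gene) act inside the cell, and Lhx6 (a LIM homeodomain transcription factor best known from interneurons) acts in the nucleus. In GRCm38 with the GENCODE M21 annotation the genes lie on 8 chromosomes: C1qtnf9 at chr14:60768134-60780869 (plus strand), Spp1 at chr5:104435118-104441050 (plus strand), Endou at chr15:97711015-97731339 (minus strand), Enpp6 at chr8:46986887-47096762 (plus strand). The others are Slc28a2 at chr2:122426477-122461137 (plus strand), Gna14 at chr19:16435762-16610820 (plus strand), Fam167b at chr4:129576815-129578549 (minus strand), Efr3b at chr12:3962554-4038915 (minus strand) and Lhx6 at chr2:36081953-36105408 (minus strand).

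Promoter sequences are shown for 4 of the genes, 1 secreted (C1qtnf9), 2 intracellular (Gna14 and Fam167b) and 1 nuclear (Lhx6), because genes that are high in the same libraries can be compared at their starts. Of the 9 genes, 8 matched the RefSeq promoter table (GRCm38.p6), with 11 promoters in all, and Endou did not. Each sequence holds the 250 bases before the start, read 5′ to 3′ on the strand of the gene. Capitals mark GGAAG, the core of the motif bound by ETS factors, a family with many endothelial members, or its reverse complement.
C1qtnf9 promoter, chr14:60767884-60768133, plus strand: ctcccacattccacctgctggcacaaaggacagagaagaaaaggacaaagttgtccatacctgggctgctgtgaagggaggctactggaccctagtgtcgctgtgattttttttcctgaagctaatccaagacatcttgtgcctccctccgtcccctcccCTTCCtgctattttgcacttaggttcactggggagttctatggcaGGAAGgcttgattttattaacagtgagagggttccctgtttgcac
Gna14 promoter, chr19:16435417-16435666, plus strand: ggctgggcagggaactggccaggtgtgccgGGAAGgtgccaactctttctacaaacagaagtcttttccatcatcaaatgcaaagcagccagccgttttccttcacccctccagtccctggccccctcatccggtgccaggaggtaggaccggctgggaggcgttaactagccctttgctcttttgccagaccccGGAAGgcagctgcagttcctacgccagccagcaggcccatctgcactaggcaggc
Lhx6 promoter, chr2:36105409-36105658, minus strand: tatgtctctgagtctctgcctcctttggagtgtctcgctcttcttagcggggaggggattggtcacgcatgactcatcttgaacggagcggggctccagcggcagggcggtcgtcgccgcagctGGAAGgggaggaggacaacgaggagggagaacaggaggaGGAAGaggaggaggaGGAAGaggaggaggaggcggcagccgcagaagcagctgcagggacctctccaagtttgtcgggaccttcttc
Fam167b promoter, chr4:129578581-129578830, minus strand: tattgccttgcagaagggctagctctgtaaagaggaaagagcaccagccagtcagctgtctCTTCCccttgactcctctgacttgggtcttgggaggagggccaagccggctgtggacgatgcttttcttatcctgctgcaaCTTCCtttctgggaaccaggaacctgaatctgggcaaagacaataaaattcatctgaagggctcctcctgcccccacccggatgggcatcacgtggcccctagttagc

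All 11 promoters held GGAAG on at least 1 strand, as did 64.1% of the 32851 promoters of the table cut to the same length. Of the other motifs searched on both strands, AACAAT (a SOX core) was in 2 of the 11 (9.42% of all promoters), AGATAA (a motif of blood and endothelial zinc finger factors) was in 1 (9.99%), and GTGGGAA (an RBPJ core, 5.42%) and AACAGGAA (a joint FOX and ETS core, 2.25%) were in 0. In the C1qtnf9 sequence the 2 GGAAG matches begin 90 and 45 bases before the start, and in that of Lhx6 3 matches begin 126, 87 and 72 bases before it. The Lhx6 sequence shown is promoter 1 of 3 of that gene, and promoters 2 and 3 held 1 match each. These are matches of letters and say nothing about binding.

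Library totals ran from 8462041 to 29214487 counts, with 17881736 in the middle, and levels are given in CPM, counts scaled to the library total and its TMM factor, for each library or as the mean of the 3 libraries of a group. Numbers 1 to 3 only name the libraries of a group, and nothing in the labels says that they came from separate animals, so p-values measure only how far these libraries differ, and that may be technical. The labels held against their defining genes: Pecam1 was at 347 to 1485 CPM in CD31+ and 8.17 to 43.9 CPM in CD31- libraries, and Rspo3 at 139 to 449 CPM in Rspo3+ and 11.1 to 24.1 CPM in Rspo3- libraries. The summed level of 16 blood endothelial markers in CD31+ cells was 16510 to 19034 CPM (small intestine) and 19188 to 25265 CPM (colon) without Rspo3, against 2632 to 3029 CPM and 2387 to 2749 CPM with it. Of the 16, 12 were lower with Rspo3 in each tissue (adjusted p below 0.05 in edgeR), while 2 in the small intestine and 1 in the colon were higher. The 11 lymphatic markers summed to 4187 to 7732 CPM and 2636 to 3113 CPM without Rspo3, against 35728 to 40546 CPM and 45694 to 56995 CPM with it. The 10 pan-endothelial markers overlapped between the 2 kinds of CD31+ library in each tissue (3793 to 5544 CPM over all 12). In CD31-Rspo3+ cells they summed to 91.0 to 126 CPM and 89.8 to 164 CPM, yet the blood endothelial list to 2079 to 2340 CPM and 2120 to 2945 CPM. The blood list is thus not particular to endothelium in these libraries. The part of the marker lists in the levels below was not tested, and in such bulk libraries fewer cells of a type and less RNA per cell cannot be told apart. Library 3 of colonic CD31+Rspo3- cells had a fibroblast marker sum of 9380 CPM (1394 and 1844 CPM in libraries 1 and 2), and library 3 of colonic CD31-Rspo3+ cells stood apart with 29451 CPM of T, B and plasma cell markers (1501 and 1227 CPM) and 1527 CPM of macrophage and dendritic markers (97.1 and 65.0 CPM). The latter library also had 2257 CPM of epithelial markers (214 and 51.0 CPM) and 21.2 CPM of mesothelial markers (2.34 and 2.10 CPM). Its fibroblast marker sum was 39038 CPM (69777.5 and 71282 CPM).

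**Figure D1:**
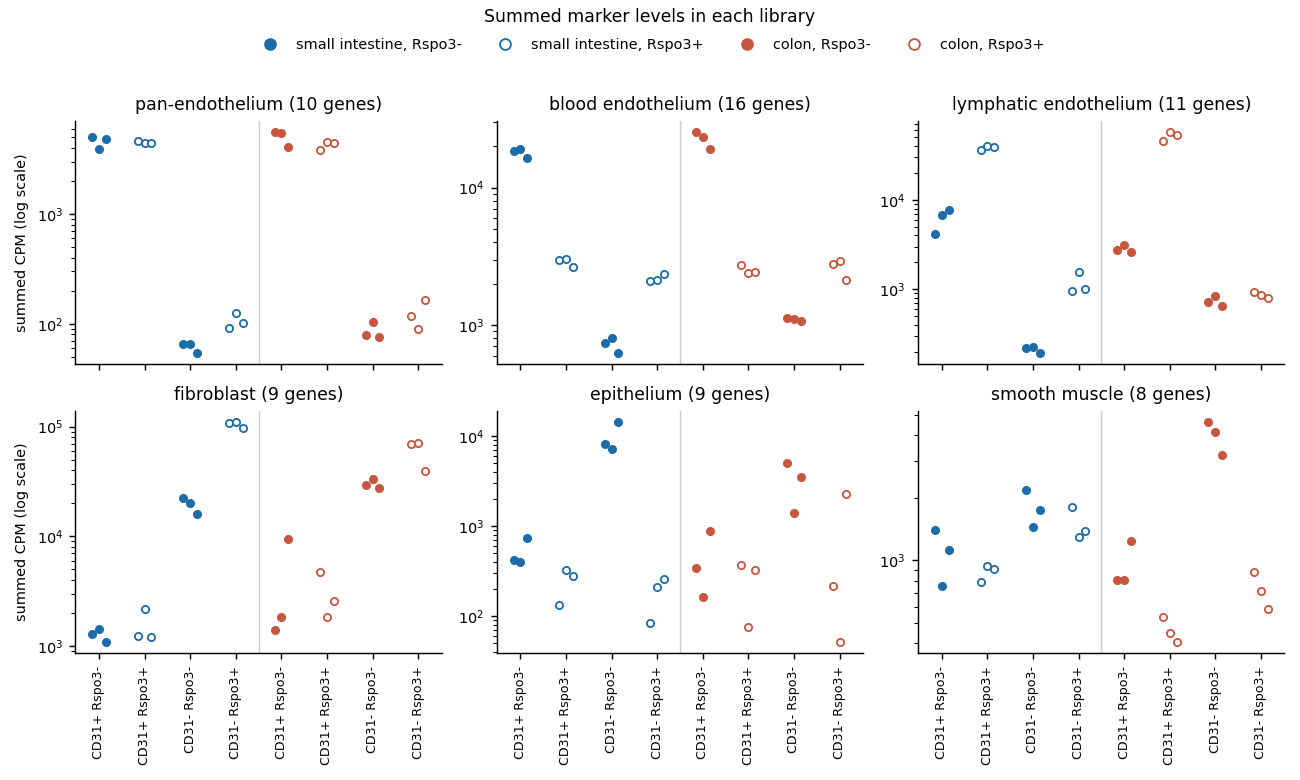
Summed CPM (log scale) of 6 marker lists in each of 24 libraries, with groups on the x axis, small intestine in blue, colon in red, Rspo3- libraries filled and Rspo3+ libraries open. In CD31+ cells the blood endothelial sums of Rspo3- libraries (16510 to 25265 CPM) lie above those of Rspo3+ libraries (2387 to 3029 CPM), and the lymphatic sums lie the other way round.

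C1qtnf9 was the most abundant of the 9 genes in CD31+Rspo3- cells, by CPM and per length (TPM). Its level was 186, 163 and 144 CPM in the small intestine and 108, 114 and 89.7 CPM in the colon. The CD31+Rspo3+ libraries had 0.0459, 0.184 and 1.07 CPM in the small intestine and 4.99, 1.47 and 1.35 CPM in the colon. The groups did not overlap in either tissue, and the means were 381-fold and 39.9-fold lower in Rspo3+ cells. Per length, its mean in CD31+Rspo3- cells was 147 TPM in the small intestine and 86.6 TPM in the colon, and it was the only one of the 9 genes that was higher in the small intestine with no overlap between the tissues (1.59-fold). Of all genes tested, 20.0% had no overlap between the tissues in CD31+Rspo3- cells, and 3 more of the 9 (Enpp6, Slc28a2 and Efr3b) did so with the colon higher. Its 12 CD31- libraries lay between 0 and 1.83 CPM.

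Spp1 was the most uneven of the 9 between libraries. It was at 6.43, 9.96 and 16.5 CPM in small intestinal CD31+Rspo3- cells and at 0.648, 11.5 and 6.21 CPM in those of the colon, a 17.7-fold range within 1 group. With Rspo3 it had no count in any of the 3 small intestinal libraries and was at 0.360, 0.0639 and 0 CPM in the colon. The groups did not overlap, but in the colon the lowest Rspo3- library (0.648 CPM) lay close to the highest Rspo3+ library (0.360 CPM). The mean was at least 170-fold lower in the small intestine, with the group's floor taken as 3 counts in sum, and 43.2-fold lower in the colon. In CD31- cells Spp1 was present in all 3 libraries of the colonic Rspo3+ group, at 3.02, 0.918 and 4.23 CPM, and was uneven in the other groups. It was at 6.52 CPM in library 2 of small intestinal CD31-Rspo3- cells, at 4.88 CPM in library 2 of CD31-Rspo3+ cells and at 10.4 CPM in library 1 of colonic CD31-Rspo3- cells, beside libraries of the same 3 groups at 0 to 0.810 CPM. Its transcripts share 14.3% of their 31-base words with Gm42793, a gene that overlaps it on the same strand and had 0 or 1 count per library.

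Endou was at 26.8, 27.0 and 33.6 CPM in small intestinal and 40.3, 36.3 and 32.3 CPM in colonic CD31+Rspo3- cells. With Rspo3, 2 of 3 small intestinal libraries had no count and the other had 0.123 CPM (2 counts), while the colon had 0.360, 0.830 and 0.974 CPM. The lowest CD31+Rspo3- library of either tissue was 14.1-fold above the highest of all 18 other libraries, 1.89 CPM. The mean was 713-fold lower in the small intestine, where the 2 counts alone give an interval of 197 to 5887 (95%, Poisson, counting error only), and 50.3-fold lower in the colon.

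Enpp6 was at 60.6, 51.9 and 44.9 CPM in small intestinal and 78.8, 86.6 and 64.9 CPM in colonic CD31+Rspo3- cells, so that the colon was higher with no overlap (1.46-fold). The CD31+Rspo3+ libraries were at 0.0917, 1.84 and 0 CPM in the small intestine and at 0.901, 1.02 and 1.24 CPM in the colon. The means were 81.6-fold and 72.7-fold lower, the first resting on library 2, which held 30 of the 32 counts. Of the CD31- cells, the colonic Rspo3- libraries had the most Enpp6, 3.03, 4.32 and 5.16 CPM.

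Slc28a2 was the most uneven between the tissues among CD31+Rspo3- cells. Its level was 40.7, 16.5 and 25.9 CPM in the small intestine and 80.0, 63.8 and 47.9 CPM in the colon, 2.31-fold higher with no overlap. CD31+Rspo3+ cells had 0, 0.552 and 0.948 CPM in the small intestine and 0.240, 0.511 and 1.41 CPM in the colon, 55.4-fold and 88.8-fold lower in the mean. Slc28a2 transcripts share 46.3% of their 31-base words with those of the neighbouring copy Gm14085, to which at most 3 counts per library were assigned, and how the deposited counting split such reads is uncertain.

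Gna14 was the gene with the steadiest level in small intestinal CD31+Rspo3- cells, at 11.4, 10.6 and 11.2 CPM, and it had no count in the 3 CD31+Rspo3+ libraries of that tissue. The mean was therefore at least 172-fold lower with the same floor. In the colon it was at 5.84, 11.4 and 8.32 CPM in CD31+Rspo3- cells and at 1.98, 1.28 and 1.46 CPM in CD31+Rspo3+ cells, which left 18.5% of the mean (5.42-fold lower), the smallest difference among the 9 genes. Gna14 was no gene of CD31+ cells alone, since its highest mean was that of colonic CD31-Rspo3- cells, at 22.9, 6.19 and 12.4 CPM.

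Fam167b was at 15.2, 7.68 and 19.4 CPM in small intestinal and 19.7, 21.6 and 12.9 CPM in colonic CD31+Rspo3- cells. The CD31+Rspo3+ libraries had 0.0459, 0.123 and 0.118 CPM in the small intestine, and in the colon only library 2 had any count, at 0.703 CPM. The means were 147-fold and 77.1-fold lower, and the 12 CD31- libraries lay at 0 to 0.442 CPM. Per length its mean of 29 TPM in the small intestine and 36.2 TPM in the colon was in the range of Enpp6 (31.8 and 45 TPM) although its CPM were lower.

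Efr3b was at 36.4, 28.5 and 27.7 CPM in small intestinal and 55.5, 46.5 and 42.2 CPM in colonic CD31+Rspo3- cells, 1.56-fold higher in the colon with no overlap. CD31+Rspo3+ cells had 0.367, 0.919 and 0.474 CPM in the small intestine and 0.601, 1.15 and 0.217 CPM in the colon, 52.6-fold and 73.3-fold lower. Small intestinal CD31-Rspo3- cells came next, at 16.6, 12.1 and 21.7 CPM, so that the lowest CD31+Rspo3- library was only 1.28-fold above the highest of the 18 others. The libraries do not mark strand, and the antisense gene Gm48001 overlaps Efr3b. Gm48001 had 11, 9 and 1 counts in the colonic CD31+Rspo3- libraries, where Efr3b had 1113, 965 and 980, and at most 2 counts elsewhere. On either strand, 1.8% of the 31-base words of Efr3b transcripts were shared with transcripts of other genes, the most with Tia1.

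Lhx6 had the clearest separation. It was at 31.6, 36.1 and 36.8 CPM in small intestinal and 39.2, 47.8 and 28.3 CPM in colonic CD31+Rspo3- cells, and the lowest of these 6 libraries was 26.4-fold above the highest of the 18 others. The CD31+Rspo3+ libraries were at 0, 0.123 and 0 CPM in the small intestine and at 0.421, 0.575 and 0.650 CPM in the colon. The mean was 853-fold lower in the small intestine (2 counts, interval 236 to 7043, counting error only) and 70.1-fold lower in the colon. On either strand, 2.12% of the 31-base words of Lhx6 transcripts were shared with transcripts of other genes. The most were shared with Gm27953, a gene that overlaps it on the same strand.

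**Figure D2:**
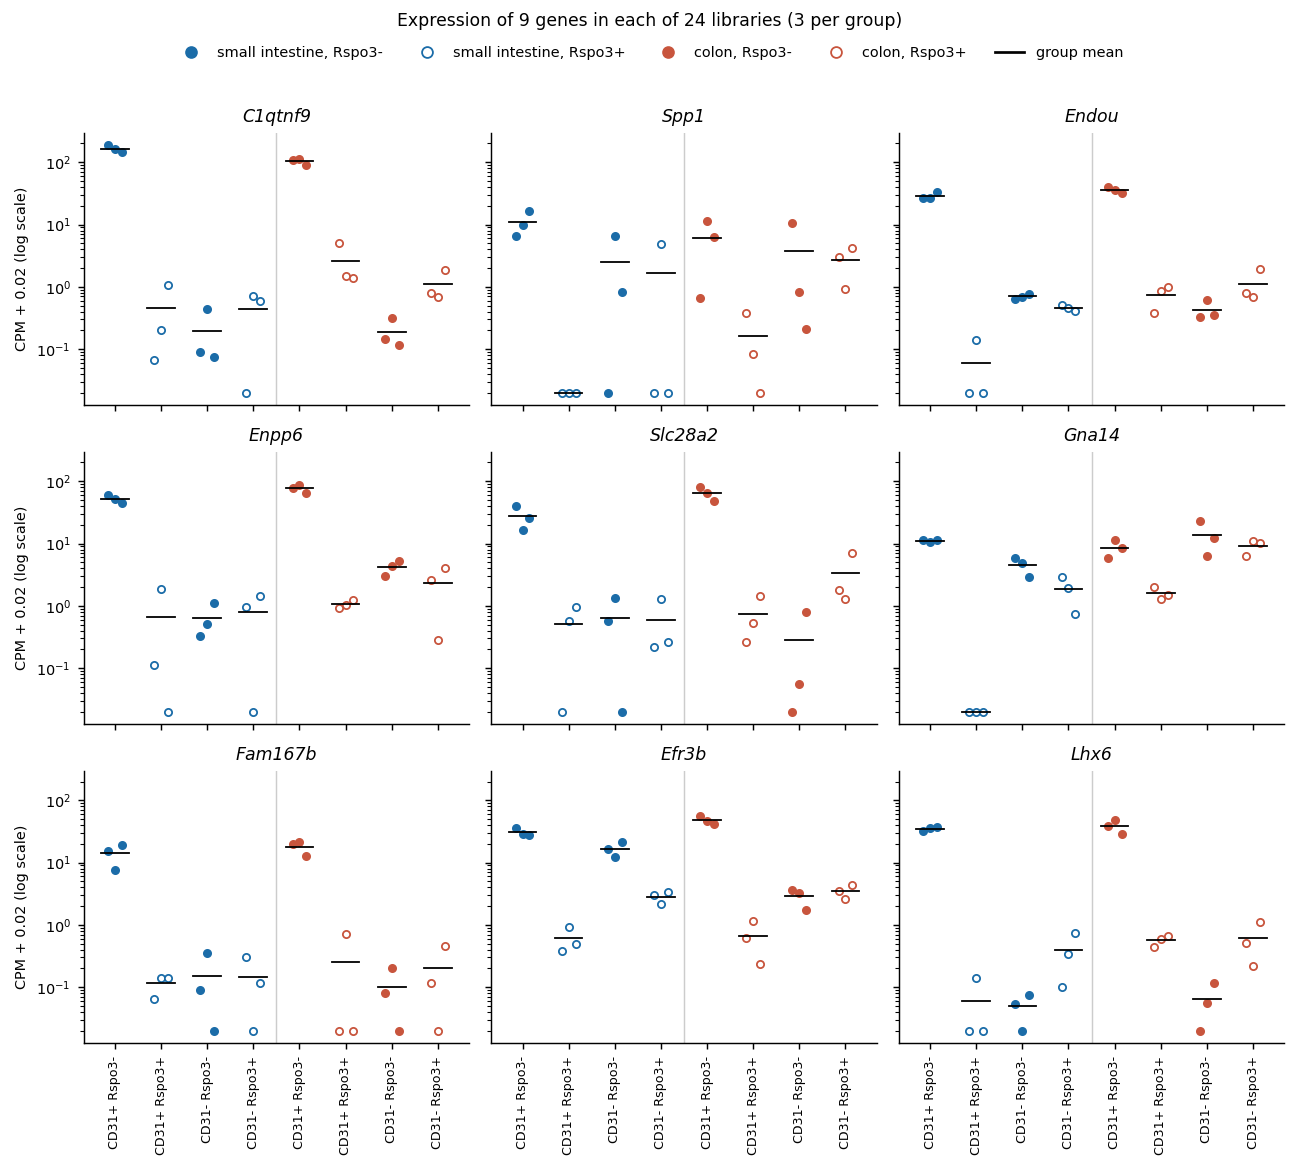
Level of each of the 9 genes in CPM + 0.02 on a log scale, with 1 point per library, a black line at the mean of 3, small intestine in blue, colon in red, Rspo3- filled and Rspo3+ open. For 7 genes all 6 CD31+Rspo3- libraries lie above the 18 others, and Gna14 and Spp1 reach similar or higher levels in CD31- libraries.

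In each tissue, the CD31+Rspo3- libraries of all 9 genes lay above the CD31+Rspo3+ libraries. Of all genes tested, 16.0% did so in the small intestine and 21.4% in the colon, and nothing is read from this count, since the contrast chose the genes. For 7 of the 9, all but Gna14 and Spp1, every CD31+Rspo3- library lay above all 18 other libraries, as it did for 3.12% of the genes tested, again a pattern that the choice favours. The median share of the CD31+Rspo3- level left in CD31+Rspo3+ cells was 0.262% in the small intestine (0.0874% without library 2 of the Rspo3+ cells) and 1.43% in the colon. By the size of the fall in the mean among 1293 eligible genes of the small intestine (at least 10 CPM without Rspo3, past the threshold, no overlap), Lhx6, Endou and C1qtnf9 held places 1, 2 and 4. Gna14 and Spp1 held places 13 and 15 at their lower bounds, since they had no count in the Rspo3+ group. Fam167b, Enpp6, Slc28a2 and Efr3b came later, in places 20, 51, 77 and 79. Near Lhx6, Endou and C1qtnf9 were Gja5, a gap junction gene of arteries (253 to 0.515 CPM in the mean), Ssu2 (122 to 0.331 CPM) and Ackr1, a chemokine receptor of venules (553 to 2.11 CPM), in places 3, 5 and 6. Among 1781 eligible genes of the colon, Slc28a2, Fam167b, Efr3b and Enpp6 held places 2 to 5 behind Epha4. Just outside were Gja5 (102 to 1.44 CPM), Lhx6 itself and Ankrd29 (23.0 to 0.343 CPM). Endou and C1qtnf9 held places 20 and 36, while Gna14 and Spp1 were below 10 CPM there and not eligible.

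Set against the CD31-Rspo3- cells of the same tissue, CD31+Rspo3- cells had more of most of these genes. In the small intestine all libraries of 8 of the 9 genes lay higher (23.2% of all genes did) and in the colon those of 7 (23.3%), a count from the same CD31+ libraries that chose the genes. The ratio of means was 1180 and 872 for Lhx6, 922 and 608 for C1qtnf9, 106 and 221 for Fam167b, and 83.5 and 18.4 for Enpp6, in the small intestine and the colon. It was 44.4 and 240 for Slc28a2, 42.9 and 88.6 for Endou, and 1.84 and 16.8 for Efr3b. For Gna14 it was 2.44 and 0.616, the latter with overlap (22.9, 6.19 and 12.4 CPM in CD31- against 5.84, 11.4 and 8.32 CPM in CD31+ cells), and for Spp1 it was 4.49 and 1.61, with overlap in both tissues.

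Of the 9 genes, 6 followed one another closely over the 24 libraries. Given as Pearson r of log2(CPM + 1), with no p because the libraries share groups and depth, the pairs among C1qtnf9, Endou, Lhx6, Fam167b, Enpp6 and Slc28a2 lay between 0.912 (Enpp6 and Slc28a2) and 0.991 (Endou and Lhx6). Efr3b was at 0.746 to 0.843 with these 6 genes, while Gna14 was at 0.425 to 0.684 and Spp1 at 0.597 to 0.684 with the 8 others. These values include the CD31+ libraries whose contrast chose the genes, so high values among them follow in part from the choice. Among 11451 candidate genes, the closest patterns were those of Sema3g (0.988) and Tmem255b (0.986) for C1qtnf9, and of Endou (0.991) and Mfng (0.987) for Lhx6. For Fam167b they were Lrrc3b (0.984) and Endou (0.983), for Endou Lhx6 and Fam167b, for Slc28a2 Endou (0.963) and P2ry6 (0.962), and for Enpp6 Lama3 (0.965) and Klk8 (0.963). Efr3b was closest to Kifc3 (0.947) and Ttll7 (0.939), Gna14 to Rcan2 (0.919) and Aif1l (0.903), and Spp1 to Fas (0.760) and Rasd1 (0.752).

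Comparing CD31- cells with and without the Rspo3 reporter addressed whether the same genes differed outside the endothelial gate. In the small intestine 2 of the 9 genes passed the threshold, an adjusted p below 0.05 in edgeR's quasi-likelihood test, while 30.4% of all genes tested did. Efr3b was at 16.6, 12.1 and 21.7 CPM in CD31-Rspo3- and at 2.99, 2.14 and 3.35 CPM in CD31-Rspo3+ cells. The groups did not overlap, and Efr3b fell by 2.57 ± 0.41 (log2 fold change ± SE, adjusted p = 9.79e-05). The epithelial marker sum moved with it, at 7089 to 14322 CPM in the Rspo3- and 82.3 to 258 CPM in the Rspo3+ libraries, and 8 of 9 epithelial markers fell. So did 6 of 6 enteric glia markers (sums of 115 to 123 CPM against 4.76 to 12.8 CPM) and 5 of 5 mesothelial markers (32.8 to 50.5 CPM against 1.94 to 3.64 CPM). Of 8 pericyte markers, 4 fell too. Lists that rose between the same libraries are given below with Lhx6. The part of any of these markers in the Efr3b difference was not tested.

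Lhx6 went the other way, at a level near 0. It was past the count filter only through groups outside this comparison, so nothing is read from its call. Small intestinal CD31-Rspo3- libraries had 0.0346, 0 and 0.0540 CPM (2 counts in sum) and CD31-Rspo3+ libraries 0.0807, 0.322 and 0.728 CPM (23 counts). The groups did not overlap, and Lhx6 rose by 3.24 ± 0.93 (adjusted p = 0.0116), a ratio of means of 12.8 with a counting interval of 3.53 to 105. The call did not hold without library 3 of the Rspo3+ cells (adjusted p = 0.142) and in limma on log2(TPM + 1), where the difference was 0.25 (adjusted p = 0.328), and with only the 2 groups in the fit it could not be tested. The fibroblast marker sum was 15990.5 to 22137 CPM in the Rspo3- and 96110 to 110433 CPM in the Rspo3+ libraries, with 8 of 9 markers higher. The pan-endothelial marker sum was 54.6 to 66.1 CPM in the Rspo3- and 91.0 to 126 CPM in the Rspo3+ libraries, with 7 of 10 markers higher. The blood endothelial sum was 630 to 803 CPM against 2079 to 2340 CPM (7 of 16 markers higher, 4 lower) and the lymphatic sum 195 to 227 CPM against 962 to 1542 CPM (10 of 11 higher). The part of these markers in the Lhx6 difference was not tested. The other 7 genes did not pass, with Gna14 nearest at 5.88, 4.87 and 2.92 CPM against 2.87, 1.93 and 0.728 CPM (log2 fold change -1.30 ± 0.49, adjusted p = 0.0513). It passed under 5 of 11 alternatives, where adjusted p ran from 0.0145 to 0.164.

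In colonic CD31- cells 1 of the 9 genes passed, against 9.14% of all genes. It was Lhx6 again, at 0, 0.0366 and 0.0955 CPM without (3 counts) and 0.487, 0.197 and 1.07 CPM with Rspo3 (25 counts). It rose by 3.5 ± 0.85 (adjusted p = 0.0129), a ratio of 13.3 with a counting interval of 4.55 to 64.5. As in the small intestine, Lhx6 was past the count filter only through groups outside the comparison, of which CD31+Rspo3- cells had the most. Nothing is read from this call either. The call was lost when library 1 or 2 of the Rspo3- cells or library 3 of the Rspo3+ cells was left out (adjusted p = 0.0518, 0.0645 and 0.0822) and in limma (adjusted p = 0.379), and with only the 2 groups in the fit Lhx6 had too few counts to be tested. Between the same libraries 7 of 10 pan-endothelial markers (sums of 76.0 to 103 CPM against 89.8 to 164 CPM), 7 of 16 blood endothelial markers (1069 to 1134 CPM against 2120 to 2945 CPM) and 6 of 11 lymphatic markers (652 to 848 CPM against 793 to 942 CPM) were higher with Rspo3, and their part was not tested. Also higher were 1 of 9 fibroblast, 8 of 9 macrophage and dendritic and 3 of 7 T, B and plasma cell markers. Lower were 6 of 8 pericyte, 8 of 8 smooth muscle and 6 of 6 enteric glia markers. The part of these lists was not tested either.

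The other 8 genes did not pass in the colon. Slc28a2 had 0, 0.0366 and 0.764 CPM without and 1.75, 1.25 and 7.14 CPM with Rspo3 (3.63 ± 1.20, adjusted p = 0.0655), and it passed in 3 of 11 alternatives. Endou (1.41 ± 0.48, adjusted p = 0.0713) and C1qtnf9 (2.56 ± 0.91, adjusted p = 0.0866) also had no overlap between the groups. In Lhx6, Slc28a2, Endou and C1qtnf9 alike, the highest Rspo3+ library was library 3. It was the one with the high T, B and plasma cell, macrophage, epithelial and mesothelial marker sums. It also had 164 CPM of pan-endothelial markers against 118 and 89.8 CPM. The part of that library's markers was not tested. Efr3b was at 3.58, 3.26 and 1.72 CPM without and 3.51, 2.56 and 4.36 CPM with Rspo3, which overlapped, and the difference of its Rspo3 effect between the tissues passed (2.85 ± 0.57 higher in the colon, adjusted p = 0.00379, beside 8.38% of all genes).

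**Figure D3:**
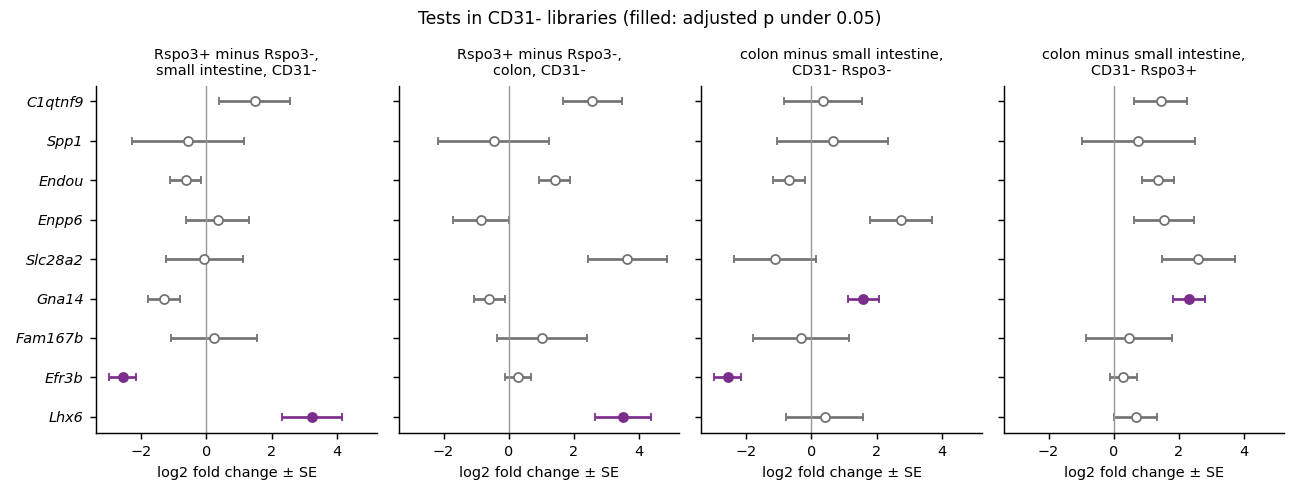
Log2 fold change ± SE of the 9 genes in 4 comparisons of CD31- cells, with genes on the y axis and filled purple points for adjusted p below 0.05. Efr3b is lower with Rspo3 in the small intestine and lower in the colon among Rspo3- cells, and Gna14 is higher in the colon with and without Rspo3. Lhx6 is filled with Rspo3 in both tissues, but it had at most 1.07 CPM in any CD31- library, and nothing is read from its calls.

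Between the tissues, among CD31-Rspo3- cells, 2 of the 9 genes passed, against 17.6% of all genes. Efr3b was lower in the colon, at 1.72 to 3.58 CPM against 12.1 to 21.7 CPM, and fell by 2.56 ± 0.41 (adjusted p = 0.000194). The epithelial marker sum was 1405 to 5020 CPM in the colon and 7089 to 14322 CPM in the small intestine, with 2 of 9 markers lower in the colon, and its part was not tested. Gna14 was higher in the colon, at 22.9, 6.19 and 12.4 CPM against 5.88, 4.87 and 2.92 CPM, with no overlap and an increase of 1.60 ± 0.48 (adjusted p = 0.0280). That call was lost in 5 of 11 alternatives, namely with only the 2 groups in the fit (adjusted p = 0.051) and without library 2 or 3 of the small intestine (0.0743 and 0.14) or 1 or 3 of the colon (0.195 and 0.0504). Smooth muscle markers moved with it, summing to 3200 to 4629 CPM in the colon and 1447 to 2184 CPM in the small intestine with 7 of 8 markers higher, and their part was not tested. Enpp6 was at 3.03 to 5.16 CPM in the colon and 0.311 to 1.08 CPM in the small intestine, with no overlap, but missed the threshold (2.74 ± 0.94, adjusted p = 0.0508).

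Among CD31-Rspo3+ cells, 1 of the 9 genes passed between the tissues, against 7.02% of all genes. Gna14 was at 6.34, 10.9 and 10.04 CPM in the colon and 2.87, 1.93 and 0.728 CPM in the small intestine, with no overlap. It was higher in the colon by 2.30 ± 0.50 (adjusted p = 0.00824), and this call held in all 11 alternatives, with adjusted p from 4.75e-05 to 0.0446. The smooth muscle sums were 584 to 883 CPM in the colon and 1292 to 1804 CPM in the small intestine here, with 3 of 8 markers lower in the colon. The part of these markers in the Gna14 difference was not tested.

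The surroundings of the 9 genes in CD31+ cells were then tested through 117 listed symbols of family and pathway genes. None of those with a row was among the 9, and the list may hold more than 1 symbol of a gene. Of these, 112 had a row and 98 were tested. With Rspo3, 13 rose and 24 fell in the small intestine, beside 9.23% higher and 10.8% lower of all genes, and 13 rose and 30 fell in the colon, beside 9.52% and 13.6%. The median log2 fold change was -0.20 and -0.33 over the listed genes and 0 and -0.05 over all genes. The blood and lymphatic marker sums given above differ between the same libraries. Mural markers moved too, with 6 of 8 pericyte and 6 of 8 smooth muscle markers lower with Rspo3 in the small intestine and 7 of 8 of each in the colon. The remaining called markers were higher with Rspo3: 2 pericyte and 1 smooth muscle marker in the small intestine, and 1 of each in the colon. Pericyte sums were 345 to 521 CPM against 363 to 454 CPM in the small intestine and 535 to 914 CPM against 122 to 134 CPM in the colon, and smooth muscle sums were 750 to 1392 CPM against 790 to 940 CPM and 806 to 1243 CPM against 405 to 535 CPM. The part of these markers in the changes was not tested.

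Among relatives and receptors of C1qtnf9, 1 rose and 6 fell of 11 tested, in each tissue. Cdh13 (T-cadherin, which binds adiponectin) was at 118, 241 and 151 CPM without and 2.66, 5.88 and 1.18 CPM with Rspo3 in the small intestine, log2 fold change -5.66 ± 0.48 (adjusted p = 4.04e-08), and at 163, 168 and 121 against 77.2, 39.7 and 35.7 CPM in the colon, log2 fold change -1.57 ± 0.39 (adjusted p = 0.00558). The paralogs C1qtnf1 (62.9 to 4.49 CPM and 48.8 to 17 CPM in the mean) and C1qtnf5 (33.0 to 1.70 CPM and 46.1 to 10.04 CPM) fell in both tissues, and C1qtnf6 rose in both (4.88 to 17.7 CPM and 3.91 to 13.1 CPM). The falls of C1qtnf1, C1qtnf5 and Cdh13 were smaller in the colon by an interaction test that 1.93% of all genes passed, and the receptor gene Adipor1, called in both tissues (303 to 217 CPM and 344 to 258 CPM), lost its call in 3 and 6 of the alternatives.

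Among binding partners and relatives of Spp1, the small intestine had 2 that rose and 4 that fell of 11 tested, and 3 rose and 5 fell in the colon. The integrin alpha chains moved in both directions: Itga9 rose from 49.1 CPM to 247 CPM in small intestinal cells (2.33 ± 0.26, adjusted p = 1.3e-06) and from 34.1 CPM to 192 CPM in colonic cells, and Itgav likewise (36.7 to 162 CPM and 35.2 to 102 CPM). Itga5 fell (169 to 72.4 CPM and 168 to 78.7 CPM), a call lost without library 2 of the Rspo3- cells in the small intestine (adjusted p = 0.0615) and without library 1 of the Rspo3- or 2 of the Rspo3+ cells in the colon (0.0573 and 0.0771). Itga8 fell in both tissues as well (17.95 to 7.22 CPM and 6.53 to 0.991 CPM), and Itga4 did not pass (5.93 to 1.39 CPM, adjusted p = 0.0522, and 8.00 to 3.64 CPM, adjusted p = 0.268). Of the beta chains, Itgb5 fell (93.6 to 24 CPM and 115 to 28.0 CPM) and Itgb3 rose in the colon (21.3 to 57.9 CPM) and did not pass in the small intestine (30.5 to 51.9 CPM, adjusted p = 0.0859). Cd44, another osteopontin receptor, fell (35.3 to 5.08 CPM and 45.7 to 14.6 CPM). Dmp1, a matrix protein of the same gene cluster as Spp1, passed in the colon at 3.74, 0.723 and 4.35 CPM without Rspo3 and 0 with it (adjusted p = 0.0152, and 0.0512 without library 3 of the Rspo3+ cells).

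Of 8 tested ribonuclease genes and their inhibitor set beside Endou, the small intestine had 2 that rose and 2 that fell, and 2 rose and 3 fell in the colon. Rnase4 (85.9 to 378 CPM and 103 to 318 CPM) and Ang (7.66 to 29.3 CPM and 5.70 to 22.4 CPM), secreted ribonucleases of 1 locus, rose in both tissues, where Endou was lower. Rnaset2a and Rnaset2b, near-identical copies whose reads may be split between them, fell in both (85.8 to 50.4 CPM and 156 to 76.7 CPM in the small intestine).

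Among 18 genes of the Enpp family and of choline handling, the small intestine had 1 that rose and 3 that fell, and 2 rose and 5 fell in the colon. Slc44a2, a choline transporter-like gene, fell in both (180 to 35.9 CPM and 197 to 53.8 CPM; small intestine log2 fold change -2.32 ± 0.17, adjusted p = 6.4e-09). Enpp2, which makes lysophosphatidic acid, fell (57.3 to 21.5 CPM and 61.7 to 27.1 CPM, the latter call lost at adjusted p = 0.0505 without library 3 of the Rspo3+ cells), while Enpp3 rose in the colon (62.5 to 231 CPM, adjusted p = 3.3e-06) and did not pass in the small intestine (63.4 to 84.3 CPM, adjusted p = 0.214). The choline kinase genes split by tissue: Chkb fell in the small intestine (63.5 to 34.4 CPM) and Chka in the colon (94.8 to 36.2 CPM), and neither passed in the other tissue, a difference between tissues that did not pass its own test for either.

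Among 13 tested genes of nucleoside transport and purine handling, 1 rose and 3 fell in each tissue. Entpd1 (CD39, which removes phosphates from extracellular ATP) was at 302, 237 and 259 CPM without and 5.18, 9.62 and 3.55 CPM with Rspo3 in the small intestine, log2 fold change -5.42 ± 0.37 (adjusted p = 3.41e-09), and at 406, 450 and 340 against 16.8, 6.20 and 9.09 CPM in the colon. Ada (adenosine deaminase) fell too (27.0 to 1.31 CPM and 44.0 to 3.73 CPM). The adenosine receptor gene Adora2b fell (2.72 to 0.266 CPM and 2.38 to 0.336 CPM) and Adora2a rose (8.38 to 25.3 CPM and 3.92 to 22.5 CPM), although its call in the small intestine (adjusted p = 0.0453) was lost in 8 of the alternatives. The equilibrative transporter gene Slc29a1 did not pass (174 to 228 CPM, adjusted p = 0.34, and 174 to 242 CPM, adjusted p = 0.212), in the cells where Slc28a2 left at most 1.41 CPM.

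Among 11 genes of Gq signaling beside Gna14, 1 rose and 5 fell in each tissue. Plcb1, 1 of the phospholipase C beta genes whose products Gq subunits activate, was at 131, 72.5 and 100.7 CPM without and 4.31, 1.90 and 4.74 CPM with Rspo3 in the small intestine (log2 fold change -4.81 ± 0.37, adjusted p = 1.33e-08) and at 191, 195 and 157 against 13.3, 6.90 and 11.5 CPM in the colon (log2 fold change -4.10 ± 0.35). In the small intestine Plcb3 fell less (80.0 to 40.5 CPM, adjusted p = 0.00115) and Plcb4 did not pass (89.5 to 129 CPM, adjusted p = 0.0731). Of the other alpha subunits, Gnaq fell (82.7 to 34.7 CPM and 74.7 to 38.4 CPM), as did Gna11 (160 to 103 CPM and 159 to 108 CPM), whose call in the colon did not hold without library 1 or 3 of the Rspo3+ cells (adjusted p = 0.0853 and 0.0504). Gna15 was at 8.87 CPM without and 0.539 CPM with Rspo3 in the colon and was called there (log2 fold change -4.02 ± 1.28, adjusted p = 0.0278), though not without library 1 of the Rspo3- or library 2 or 3 of the Rspo3+ cells (adjusted p = 0.0633, 0.0902 and 0.0829), and it did not pass in the small intestine (4.20 to 0.412 CPM, adjusted p = 0.0780), though it did in DESeq2 and limma. Kalrn was the gene of this list that rose (22.8 to 46.0 CPM and 17.2 to 35.9 CPM), with its small intestinal call lost in limma (adjusted p = 0.0896).

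Of 8 tested Src-family and Fam167 genes, 2 rose in the small intestine, 1 rose in the colon and 0 fell. Lyn rose in both tissues (108 to 358 CPM and 93.1 to 267 CPM), and Yes1 rose in the small intestine (67.8 to 171 CPM) but did not pass in the colon (83.7 to 99.4 CPM, adjusted p = 0.375). The paralog Fam167a stayed at a mean of at most 0.622 CPM in all 4 CD31+ groups. Of 8 tested genes of the Pi4ka complex beside Efr3b, 0 passed in the small intestine and 1, Fam126a, in the colon (61.9 to 36.5 CPM, adjusted p = 0.0242, lost in 5 alternatives). The paralog Efr3a was at 99.3 and 102 CPM in the small intestine and at 105 and 105 CPM in the colon, without and with Rspo3.

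Of 10 tested LIM genes beside Lhx6, the small intestine had 3 that rose and 1 that fell, and 2 rose and 2 fell in the colon. Among the small intestinal rises, Ldb2 (107 to 176 CPM, adjusted p = 0.0465) lost its call in limma (0.0515), with no filter (0.059) and without some single libraries (up to 0.18). Lmo3 (0 to 0.321 CPM, adjusted p = 0.0196) lost its call in limma (0.361) and without library 1 or 2 of the Rspo3- or 2 of the Rspo3+ cells (0.0612, 0.057 and 0.0587). Lmo1, a LIM-only gene, was at 6.37, 9.40 and 7.66 CPM without and 0.0917, 0.123 and 0 CPM with Rspo3 in the small intestine (log2 fold change -6.46 ± 0.78, adjusted p = 4.29e-06) and fell from 4.61 to 0.338 CPM in the colon. Lmo4 rose in both tissues (14.8 to 27.0 CPM and 16.6 to 28.1 CPM), and Lmo2, a LIM-only gene of endothelium, rose in the colon (140 to 351 CPM) and did not pass in the small intestine (211 to 295 CPM, adjusted p = 0.171). Of the 7 other Lhx genes listed, none had enough counts to be tested, while of the tested LIM homeodomain relatives Isl1 fell in the colon (4.84 to 1.22 CPM, log2 fold change -1.98 ± 0.62, adjusted p = 0.0258), a call lost without library 1 or 3 of the Rspo3- or 2 or 3 of the Rspo3+ cells (adjusted p from 0.0554 to 0.112). Isl2, Lmx1a and Lmx1b passed in neither tissue.

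**Figure D4:**
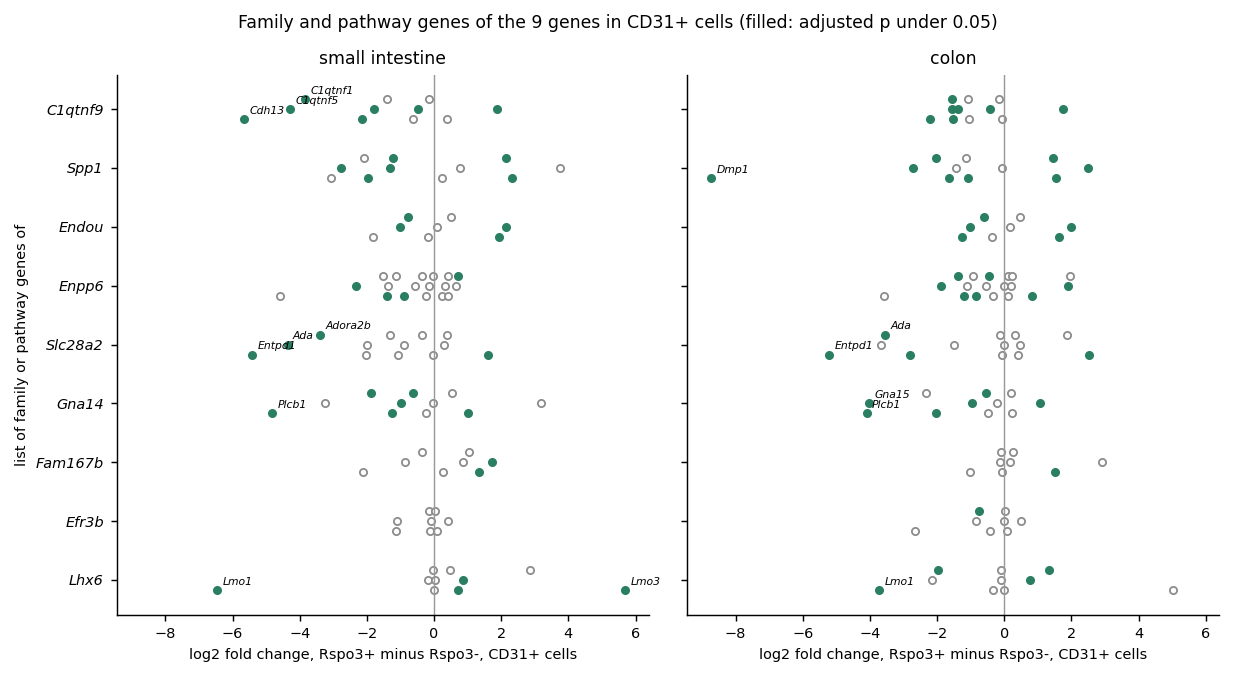
Log2 fold change with Rspo3 in CD31+ cells of the small intestine (left) and colon (right) for each tested gene of the 9 lists, with filled points for adjusted p below 0.05 and names for called genes beyond 3 in either direction. Most named genes lie to the left, among them Cdh13, Entpd1, Plcb1 and Ada, and the fitted values of Lmo3 (left panel) and Dmp1 (right panel) are no measure of size because 1 group has no count.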

How the data were processed

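Sorted stromal cells were made into SMART-Seq v4 libraries, which carry no strand information, per the labels' protocols. The submitters' processing notes list Salmon 1.3.0, R 4.0.1 and build mm10, and the sources used here name no annotation release or filter. Estimated counts in the deposited table are whole numbers and needed no rounding, and the deposited log2 values are log2(TPM + 1) by the authors. Columns were matched to groups by tissue, CD31 and reporter sign. Symbols and positions came from GENCODE M21 (54096 of 54418 IDs).

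Here 1 edgeR 4.0.16 model (R 4.3.3) with a mean per group was fitted to all 24 libraries, with TMM factors, filterByExpr (minimum count 10, minimum total 15) and Benjamini-Hochberg adjustment over 19050 genes, and was tested on simulated data. Within groups, libraries correlated at 0.918 to 0.981 and differed by more than counting noise. Alternatives were DESeq2 1.42.0 (Wald test, or its size factors in edgeR), limma 3.58.1 on log2(TPM + 1), no filter, only the 2 groups compared, and each library left out. The genes, lists and rules were chosen with earlier results of these data known. Genes named besides the 9 were the 2 closest in pattern to each, the 2 smallest adjusted p of each list and tissue, and the 3 next in size of fall. Further genes of a list named by value, such as Enpp2, Chka, Adora2b, Itga5, Gna15 and Isl1, were chosen after their values were seen.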

Additional observations from a re-analysis of the deposited data

Results flagged for a closer look

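For 1 of the 9 genes the Rspo3 difference in CD31- cells was not the same in the 2 tissues by an interaction test in edgeR. The log2 fold change of Efr3b was higher in the colon by 2.85 ± 0.57 (adjusted p = 0.00379), and over 15 alternatives adjusted p ran from 4.29e-07 to 0.0154. All 3 small intestinal CD31-Rspo3- libraries (12.1 to 21.7 CPM) lay above the other 9 CD31- libraries (1.72 to 4.36 CPM).

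In CD31+ cells, 6 of the 98 tested family and pathway genes had a Rspo3 difference that changed with the tissue, beside 1.93% of all genes. The colon minus small intestine value was 4.09 ± 0.58 for Cdh13 (adjusted p = 0.000521), 2.31 ± 0.35 for C1qtnf1 (0.000919), 2.08 ± 0.40 for C1qtnf5 (0.00694) and 1.47 ± 0.31 for Enpp3 (0.0138). It was -1.08 ± 0.26 for Yes1 (adjusted p = 0.0375) and -7.84 ± 1.86 for Lmo3 (0.0355), and these calls were lost in 11 and 9 of the alternatives. Lmo3 had 0 counts in small intestinal CD31+Rspo3- libraries and at most 2.20 CPM in any CD31+ library, so its value is no measure of size.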

How the results depend on the processing

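Of the 9 genes' 36 tests in CD31- cells, none changed direction where either value passed, and the sign changed in 31 of 386 alternative values that passed in neither. The number of the 9 that passed was 2 in small intestinal CD31- cells (1 in limma, 3 in DESeq2, 1 to 3 with a library left out) and 1 in colonic CD31- cells (3 in DESeq2, 2 with no filter, 0 with only the 2 groups, 0 in limma, 0 to 2 with a library left out). Between the tissues it was 2 without Rspo3 (1 to 2 with a library left out) and 1 with Rspo3 (2 in DESeq2, 1 to 2 with a library left out). Over all genes, 1741 passed in colonic CD31- cells, against 2638 in DESeq2, 1152 with only the 2 groups, 3306 in limma and 1059 to 2300 with a library left out. Between the tissues 3353 passed without Rspo3 (5330 in limma, 1966 to 2875 with a library left out) and 1337 with Rspo3 (2132 in DESeq2, 731 to 1385 with a library left out). The cause was not tested. The median share left in CD31+Rspo3+ cells was 0.262% in the small intestine, against 0.0874% to 0.380% with a library left out, and 1.43% in the colon, against 2.20% on deposited TPM and 1.28% to 1.82% with a library left out. Of the listed genes called in CD31+ cells, the small intestine kept 30 of 37 and the colon 32 of 43 in every alternative, and none was reversed. No paired analysis was possible because the columns carry no replicate number. A 2-count or 3-count level limits Lhx6 in CD31- cells, and nothing is read from its calls there, which are among the numbers given above.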
